A study of Homo sapiens with 6 samples.

Results

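Small nucleolar RNAs are short non-coding RNAs of the nucleolus, and most of those in human cells are cut out of the introns of other genes, their hosts. Box C/D RNAs, with SNORD symbols, guide the methylation of riboses in ribosomal RNA, and box H/ACA RNAs, with SNORA symbols, guide the conversion of uridine to pseudouridine. A few, such as U3 (SNORD3A) and U14 (the SNORD14 genes), take part in the cleavage of the ribosomal RNA precursor instead of, or besides, guiding a modification. The genes described here are the rows of the authors' table of selected genes whose symbol starts with SNORA, SNORD or SCARNA. There were 37 of them among 405 selected genes, 30 of the box C/D class, 7 of the box H/ACA class and 0 Cajal body RNAs (SCARNA). Of the 37, 36 also had a row in the table of values of all 32321 probe sets, and SNORD3A did not. The authors chose the table by the comparison of the same arrays, so the size and direction of these genes' differences describe the choice and are not evidence for it.

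Cells of the human pancreatic cancer line Panc-1 were transfected with pCIG-Gli3T or with empty pCIG, by lipofection. Gli3T is a truncated Gli3 that represses hedgehog target genes, and an IRES placed GFP on its transcript. RNA of GFP-positive cells sorted 24 h later was hybridised to 6 Affymetrix arrays, 3 labelled Gli3T and 3 labelled empty vector. Separate cultures for the 3 arrays of a group are not stated, so p-values measure only the spread between arrays, which can be technical, and 3 arrays a group give limited precision. All values below are log2 expression values, in which a difference of 1 is a 2-fold change. As a check of the labels, GLI3 itself had a difference of -1.34 ± 0.11 log2 (SE; adjusted p = 0.00884, limma), lower where the label says Gli3T, and PTCH1, a textbook Gli target, was higher by 0.91 ± 0.12 (adjusted p = 0.0224, limma). In limma's fits without any 1 array labelled Gli3T, the adjusted p of GLI3 was 0.0695 to 0.0983, and that of PTCH1 was 0.108 to 0.137 there and 0.0642 without empty vector replicate 3. PTCH1 thus went against the repression described for Gli3T, and GLI3 was not raised where the label says Gli3T, so the check was not passed. Whether the GLI3 probe set can detect the transfected sequence is not known here. Whether labels were exchanged was not tested, and every direction below rests on them. Empty vector replicate 1 stood apart, with correlations of 0.981 and 0.985 with the other empty-vector arrays over all probe sets. Replicates 2 and 3 correlated at 0.991 with each other, also below the arrays labelled Gli3T, at 0.995 or more. Replicate 1 also had the highest median, 8.529 log2 against 8.417 in replicate 2 and 8.420 in replicate 3. The keratins and other markers by which the cells could be checked were not analysed here, nor were the proteins of the small nucleolar particles, since probe sets outside the table of selected genes have no names here.

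The 36 RNAs lay within 23 host genes, going by the gene spans of RefSeq on GRCh38.p14, in which strand was not checked. SNHG1 held 6 of them, GAS5 4, RPL23A 3, and TAF1D, SNHG16 and SNHG29 2 each, and the other 17 hosts held 1. SNHG1, GAS5, SNHG16, SNHG29 and ZFAS1 are long non-coding RNAs that carry small RNAs in their introns. Many such hosts, and many genes of ribosomal proteins, start with a run of C and T, the 5′ terminal oligopyrimidine tract through which their translation is regulated. The small RNAs of a host are transcribed from its start. The promoter windows are therefore shown for SNHG1 and for 3 hosts with a named probe set of their own. Each is RefSeq sequence of GRCh38.p14, with 80 bases before the annotated start and 20 from it, and capitals mark the unbroken run of C and T that begins at the start.
SNHG1, chr11:62855866-62855965, minus strand: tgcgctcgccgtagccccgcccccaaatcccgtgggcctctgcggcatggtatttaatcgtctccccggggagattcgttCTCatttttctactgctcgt
TAF1D, chr11:93741476-93741575, minus strand: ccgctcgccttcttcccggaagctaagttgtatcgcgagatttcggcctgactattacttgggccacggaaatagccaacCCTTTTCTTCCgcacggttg
RABGGTB, chr1:75786176-75786275, plus strand: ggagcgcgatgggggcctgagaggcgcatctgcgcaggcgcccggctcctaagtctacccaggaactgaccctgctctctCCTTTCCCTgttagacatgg
ZFAS1, chr20:49278562-49278661, plus strand: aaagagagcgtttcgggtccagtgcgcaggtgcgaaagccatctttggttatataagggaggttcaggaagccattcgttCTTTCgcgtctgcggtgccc
The run was 11 bases long in TAF1D, 9 in RABGGTB, 5 in ZFAS1 and 3 in SNHG1. It was 0 in GAS5, SNHG16 and SNHG29, whose windows are not shown. Each host was read from 1 annotated start only, so a short run or none here does not mean that the host lacks the tract. A run of at least 5 bases that opened with C was found at the start of 11 of the 20 host genes with a promoter in the RefSeq table (55.0%), against 1429 of all 35116 promoters (4.07%). The Gli binding motif GACCACCCA was searched on both strands of the whole windows, from 250 bases before the start to 50 after it. It was in the window of 1 host, SNHG29, which was 5.0% of the 20, and in 0.236% of all promoters. These matches describe the letters of the windows and say nothing of which factor was bound.

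All 36 RNAs were lower in the arrays labelled Gli3T, by 0.64 to 2.24 log2, with a median difference of -1.22 against -0.05 over all probe sets. SNORD26 and SNORD25, from the introns of SNHG1, had the largest differences. In each of the 36, every array labelled Gli3T read below every empty-vector array, as it did in 13.0% of all probe sets. The gap between the highest array labelled Gli3T and the lowest empty-vector array ran from 0.40 to 1.38 log2, with a median of 0.76. In limma's fit over all probe sets, 35 of the 36 were called lower at an adjusted p of 0.05 (adjusted p = 0.0166 to 0.0496), where 1.06% of all probe sets were called lower, 1.40% higher and 2.47% in either direction. The exception was SNORD1C, with an adjusted p = 0.0502 in limma. All 36 had an unadjusted p under 0.05, against 8.50% of all probe sets that were lower at that limit. Nothing is read from these counts, since the table had been selected by this contrast. Differences in the authors' selection began at 0.58 log2. SNORA61 was just inside, at -0.64, and no member just outside can be named. In a bulk sample, less RNA per cell and fewer cells with the RNA cannot be told apart. Whether a probe set read the small RNA alone, or its host's transcript too, was not tested.

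**Figure D1:**
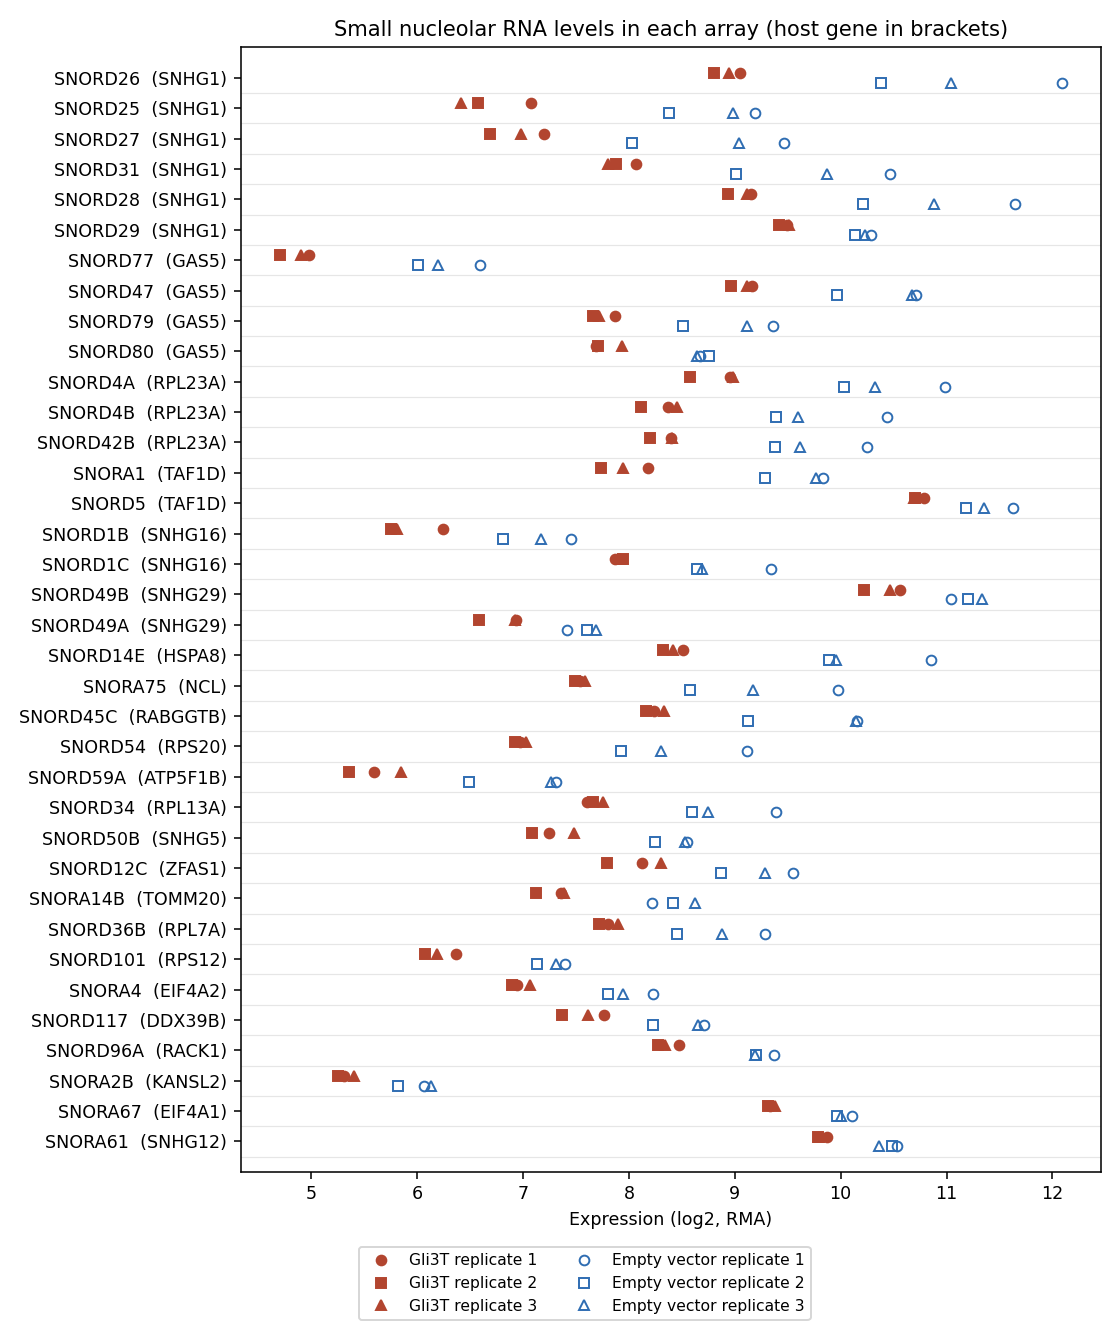
Log2 expression of 36 small nucleolar RNAs on each array, with host genes in brackets, ordered by the number of RNAs per host. Filled red symbols are the 3 arrays labelled Gli3T and open blue symbols the 3 empty-vector arrays, with the symbol shape giving the replicate; the groups do not overlap in any row.

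With all 6 arrays weighted equally, the 5 largest differences were those of RNAs in SNHG1. Without empty vector replicate 1, 4 of the 5 largest were, as SNORA1 at -1.57 log2 passed SNORD31 (-1.52) and SNORD28 (-1.48), and with array weights 3 of 5 were. SNORD26 and SNORD25 were the top pair in both. SNORD26, which guides methylation of the large ribosomal RNA, read 9.04, 8.81 and 8.94 in the arrays labelled Gli3T, against 12.09, 10.38 and 11.05 in the empty-vector arrays. The arrays labelled Gli3T lay within 0.24 of each other, whereas the empty-vector arrays spread over 1.71. It averaged 8.93 ± 0.12 in the arrays labelled Gli3T and 11.17 ± 0.86 in the empty-vector arrays (SD, n = 3 each), a difference of -2.24 ± 0.39 log2 (SE), or 4.73-fold (adjusted p = 0.0414, limma). SNORD25, a guide for the small ribosomal RNA, read 7.08, 6.57 and 6.41 in the arrays labelled Gli3T, against 9.19, 8.38 and 8.98 in the empty-vector arrays. Its difference was -2.16 ± 0.25 log2 (SE; adjusted p = 0.0182, limma). Replicate 2 was the lowest empty-vector array for both RNAs.

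The same order held for the next 3 RNAs of that host. SNORD27, another guide for the small ribosomal RNA, read 7.20, 6.68 and 6.98 in the arrays labelled Gli3T, against 9.47, 8.03 and 9.04 in the empty-vector arrays. SNORD28, a guide for the small ribosomal RNA as well, read 9.15, 8.94 and 9.12 in the arrays labelled Gli3T, against 11.65, 10.21 and 10.88 in the empty-vector arrays. SNORD31, a box C/D RNA, read 8.07, 7.88 and 7.80 in the arrays labelled Gli3T, against 10.46, 9.01 and 9.87 in the empty-vector arrays. In all 3, empty vector replicate 1 was highest and replicate 2 lowest, more than 1.4 log2 apart. Their differences were close together, at -1.89 ± 0.35 for SNORD27, -1.85 ± 0.33 for SNORD28 and -1.86 ± 0.34 log2 (SE) for SNORD31.

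SNORD29, from the same host, differed less. It read 9.49, 9.42 and 9.51 in the arrays labelled Gli3T, against 10.29, 10.14 and 10.23 in the empty-vector arrays, a difference of -0.75 ± 0.08 log2 (SE; adjusted p = 0.0167, limma). Both groups were tight, and the small spread gave it a lower p than the other RNAs of SNHG1, whose differences were larger. Set against the mean of the other 5 RNAs of SNHG1 on each array, its difference was smaller by 1.25 ± 0.36 log2 (SE). SNORD29 was singled out for its small difference, so this value is read as a description. Its exact permutation p-value was only counted in the family of 5 comparisons below.

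Outside SNHG1, the largest differences were those of SNORD14E, SNORA75 and SNORA1. SNORD14E, a copy of U14 in the gene of the chaperone HSPA8, read 8.51, 8.32 and 8.41 in the arrays labelled Gli3T, against 10.85, 9.89 and 9.95 in the empty-vector arrays. Here replicate 1 alone stood high, with the other empty-vector arrays 0.06 apart, and the difference was -1.81 ± 0.25 log2 (SE; adjusted p = 0.0264, limma). SNORA75, a box H/ACA RNA in the gene of nucleolin (NCL), read 7.54, 7.49 and 7.59 in the arrays labelled Gli3T, against 9.98, 8.58 and 9.17 in the empty-vector arrays. Its arrays labelled Gli3T lay within 0.09 of each other and its empty-vector arrays 1.40 apart, with a difference of -1.70 ± 0.32 log2 (SE; adjusted p = 0.0484, limma). SNORA1, a box H/ACA RNA in TAF1D, read 8.18, 7.74 and 7.94 in the arrays labelled Gli3T, against 9.83, 9.29 and 9.76 in the empty-vector arrays. It differed by -1.67 ± 0.18 log2 (SE; adjusted p = 0.0166, limma), with a similar spread in both groups.

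GAS5, a growth-arrest transcript, holds many box C/D RNAs in its introns, and the 4 measured here had differences from -0.91 to -1.41 log2. SNORD77 read 4.98, 4.70 and 4.91 in the arrays labelled Gli3T, against 6.59, 6.01 and 6.20 in the empty-vector arrays. The groups were 1.03 apart, and the difference was -1.41 ± 0.16 log2 (SE; adjusted p = 0.0182, limma). SNORD47 (-1.37 ± 0.20 log2, SE) and SNORD79 (-1.24 ± 0.21) were, like SNORD77, highest in empty vector replicate 1 and lowest in replicate 2. SNORD80 was not, at 7.69, 7.71 and 7.93 in the arrays labelled Gli3T, against 8.67, 8.75 and 8.64 in the empty-vector arrays. Its empty-vector arrays were within 0.11 of each other, and its difference was -0.91 ± 0.10 log2 (SE; adjusted p = 0.0166, limma). So both SNHG1 and GAS5 held an RNA with a narrow empty-vector spread beside others with a wide one.

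For the 7 RNAs in genes of ribosomal proteins the differences ran from -1.07 to -1.61 log2, with a median of -1.41. The 3 in RPL23A lay close together, SNORD4A at -1.61 ± 0.25, SNORD4B at -1.50 ± 0.27 and SNORD42B at -1.41 ± 0.22 log2 (SE). SNORD4A and SNORD4B are related copies whose probe sets may share signal, which was not tested. SNORD54, in RPS20, read 6.97, 6.92 and 7.03 in the arrays labelled Gli3T, against 9.11, 7.92 and 8.31 in the empty-vector arrays. Its arrays labelled Gli3T were within 0.10 of each other and its empty-vector arrays 1.19 apart. SNORD54 differed by -1.47 ± 0.28, SNORD34 in RPL13A by -1.24 ± 0.20, SNORD101 in RPS12 by -1.07 ± 0.11 and SNORD36B in RPL7A by -1.07 ± 0.20 log2 (SE). The 17 RNAs in long non-coding hosts had a median of -1.20, over the wider range from -0.64 to -2.24, and the 12 in other protein-coding genes a median of -1.08, from -0.66 to -1.81. The 3 ranges overlapped, and no test was made between these groups of hosts, whose RNAs share arrays and often transcripts.

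Among the other long non-coding hosts, SNHG16 held SNORD1B (-1.20 ± 0.20 log2, SE) and SNORD1C (-0.98 ± 0.19). SNORD1C, the RNA that missed the limit for a call, read 7.87, 7.94 and 7.91 in the arrays labelled Gli3T, against 9.34, 8.64 and 8.69 in the empty-vector arrays. Empty vector replicate 1 was well above the other empty-vector arrays, which lay 0.70 and more above the arrays labelled Gli3T. SNORD50B in SNHG5, an RNA reported to bind the K-Ras protein, differed by -1.17 ± 0.13 log2 (SE), and SNORD12C in ZFAS1 by -1.16 ± 0.20. SNORD49A and SNORD49B, the pair in SNHG29, had differences of -0.75 ± 0.13 for SNORD49A and -0.78 ± 0.12 log2 (SE) for SNORD49B. SNORD49B read 10.56, 10.22 and 10.46 in the arrays labelled Gli3T, against 11.04, 11.20 and 11.34 in the empty-vector arrays. Both were lowest in empty vector replicate 1 and highest in replicate 3, unlike most of the other RNAs.

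Of the remaining RNAs in protein-coding genes, SNORD45C in RABGGTB differed by -1.57 ± 0.27 log2 (SE), SNORD59A in the ATP synthase gene ATP5F1B by -1.43 ± 0.24, and SNORA14B in TOMM20, a mitochondrial import receptor gene, by -1.13 ± 0.13. SNORA4 in EIF4A2, a translation helicase gene, differed by -1.03 ± 0.12 log2 (SE), SNORD117 in the RNA helicase gene DDX39B by -0.95 ± 0.16, and SNORD96A in the ribosomal scaffold gene RACK1 by -0.89 ± 0.09. These 6 RNAs lay in 6 genes on 5 chromosomes.

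The smallest differences belonged to SNORA2B, SNORA67, SNORD5 and SNORA61. SNORA61, in SNHG12, read 9.87, 9.78 and 9.80 in the arrays labelled Gli3T, against 10.53, 10.48 and 10.36 in the empty-vector arrays. SNORD5, in TAF1D, read 10.79, 10.70 and 10.69 in the arrays labelled Gli3T, against 11.62, 11.19 and 11.35 in the empty-vector arrays. The gap between the groups was 0.50 for SNORA61 and 0.40 for SNORD5, the smallest of the 36. SNORA67, in the translation helicase gene EIF4A1, read 9.33, 9.32 and 9.38 in the arrays labelled Gli3T, against 10.10, 9.97 and 10.00 in the empty-vector arrays. SNORA2B, in KANSL2, read 5.30, 5.25 and 5.40 in the arrays labelled Gli3T, against 6.06, 5.82 and 6.13 in the empty-vector arrays. Their differences were -0.64 ± 0.08 for SNORA61, -0.66 ± 0.12 for SNORD5, -0.68 ± 0.08 for SNORA67 and -0.69 ± 0.11 log2 (SE) for SNORA2B.

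**Figure D2:**
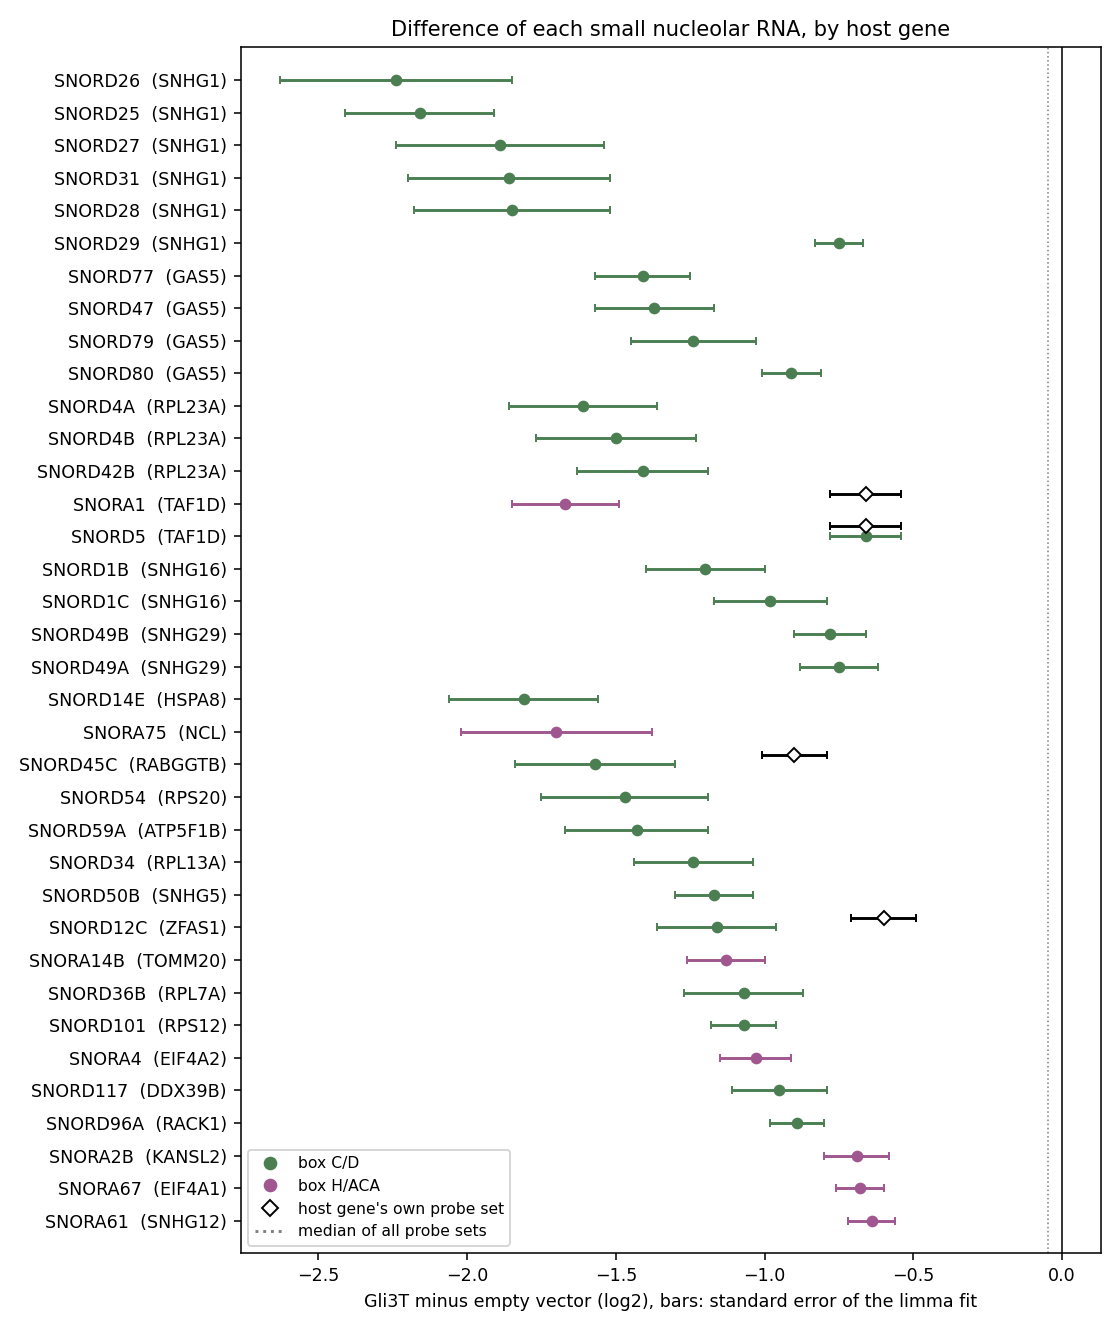
Difference between the arrays labelled Gli3T and the empty-vector arrays (log2) for 36 small nucleolar RNAs by host gene, with bars for the standard error of the limma fit. Box C/D RNAs are green and box H/ACA RNAs purple; white diamonds are the probe sets of the hosts TAF1D, RABGGTB and ZFAS1 themselves, and the dotted line is the median of all probe sets, at -0.05.

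SNORD3A, the U3 RNA, has a promoter of its own, and no RefSeq gene span held it. In the authors' deposited table it read 10.24 and 10.01 in replicates 1 and 2 labelled Gli3T, against 11.17, 11.42 and 11.36 in the empty-vector arrays. It averaged 10.12 ± 0.16 in the arrays labelled Gli3T (SD, n = 2) and 11.32 ± 0.13 in the empty-vector arrays (SD, n = 3). The difference was -1.19 log2, and SNORD3A was not in the fit over all probe sets. Empty vector replicate 1 was its lowest array of that group, where it was the highest for 31 of the other 36. At 217 bases it was also the longest of the 37 in the RefSeq table.

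By class, the 29 box C/D RNAs measured on all arrays had a median difference of -1.24 log2, from -0.66 to -2.24, and the 7 box H/ACA RNAs one of -1.03, from -0.64 to -1.70. The ranges overlapped, and no test was made between the classes. In the RefSeq table these box C/D RNAs were 48 to 86 bases long and the box H/ACA RNAs 130 to 137, so class and size cannot be told apart among the 36. SNORD3A, of the box C/D class and longer than all of them, was not in the fit. The empty-vector arrays spread over a median of 0.80 log2 in the box C/D RNAs and 0.40 for the box H/ACA RNAs. The arrays labelled Gli3T spread over 0.24 for the box C/D RNAs and 0.15 for the box H/ACA RNAs.

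The size of the difference depended on which empty-vector array was used. Against the mean of the arrays labelled Gli3T, the median of the 36 was -1.56 log2 in empty vector replicate 1, -0.91 in replicate 2 and -1.27 in replicate 3. Replicate 1 was the highest empty-vector array for 31 of the 36 RNAs, replicate 2 the lowest for 30, and both held for 29 (80.6%). This order was found in 17.2% of all probe sets, and in 17 of the 99 other named genes that limma called lower (17.2%). The 7 RNAs without it were SNORD80, SNORD96A, SNORD49A, SNORD49B, SNORA2B, SNORA14B and SNORA61. The RNAs of 1 host share a transcript, and all share the same 3 arrays, so these are not independent observations.

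**Figure D3:**
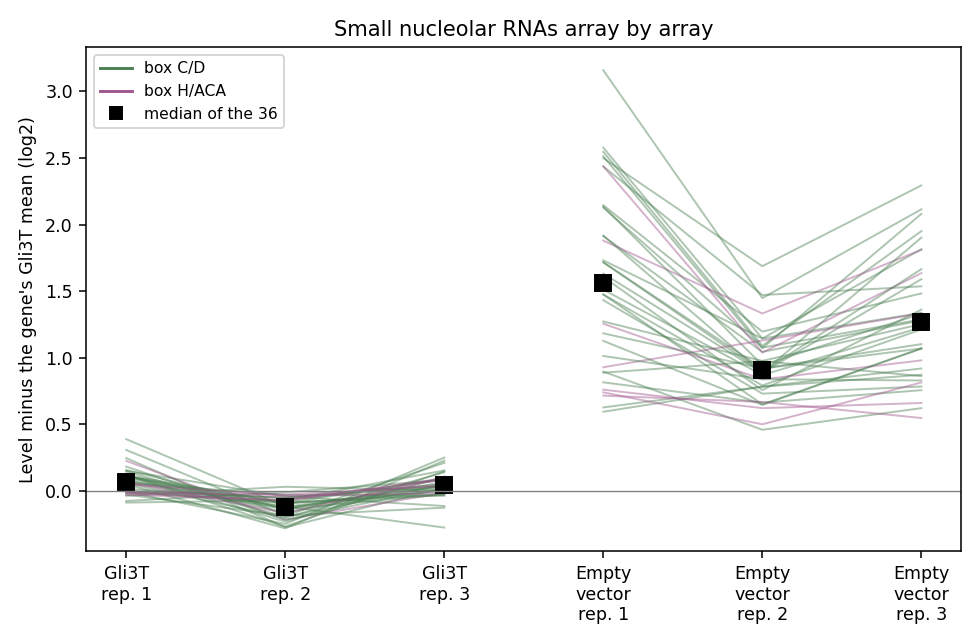
Level of each of the 36 small nucleolar RNAs on each array minus that gene's mean in the arrays labelled Gli3T (log2), with the arrays labelled Gli3T on the left and the empty-vector arrays on the right. Thin lines are genes, joined within a group only to trace them, and black squares are medians; those of the empty-vector arrays are highest in replicate 1 and lowest in replicate 2.

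The empty-vector arrays were further apart for these RNAs than for other genes. Their median range was 0.69 log2, against 0.30 in the other 99 named genes called lower and 0.34 in all probe sets. limma's calls favour genes with a small spread, so the ranges of those 99 are partly set by how they were chosen. It was over 1 log2 for 8 RNAs, which were SNORD26, SNORD27, SNORD28, SNORD31, SNORA75, SNORD45C, SNORD4B and SNORD54. The median range in the arrays labelled Gli3T was 0.22 log2, against 0.14 in those named genes and 0.15 in all probe sets. Without empty vector replicate 1 the median difference of the 36 was -1.09 log2 in place of -1.22, and SNORD26 differed by -1.78, SNORD25 by -1.99 and SNORD29 by -0.71. limma then called all 36 lower, SNORD1C included, where 3.49% of all probe sets were called lower. Without empty vector replicate 3, or any 1 array labelled Gli3T, it called 0 of the 36 at an adjusted p of 0.05. In these 4 fits, in which limma called at most 69 of all probe sets in either direction, each of the 36 had an unadjusted p under 0.05. The share of all probe sets lower at that unadjusted limit was 8.86% without empty vector replicate 3, and 5.82%, 5.59% and 5.67% without replicates 1, 2 and 3 labelled Gli3T.

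Of the hosts on a fixed list, 3 had a named probe set of their own. Only genes in the authors' selection have names here, so a host that did not differ could not be named. Nothing is therefore read from all 3 being lower. ATP5F1B, DDX39B, KANSL2 and TOMM20 were not on that list and were not looked for. SNHG29 was covered only by a search for SNHG symbols. That search named 1 gene, which had no row in the table of values and is not identified here. TAF1D, a subunit of the factor that loads RNA polymerase I onto ribosomal RNA genes, read 10.65, 10.51 and 10.45 in the arrays labelled Gli3T, against 11.32, 10.99 and 11.29 in the empty-vector arrays. Its difference of -0.66 ± 0.12 log2 (SE; adjusted p = 0.0421, limma) was as large as that of its intronic SNORD5. SNORD5 minus TAF1D was 0.19 in the arrays labelled Gli3T and 0.19 in the empty-vector arrays, and the difference of 0.00 ± 0.08 log2 (SE) left room for a small one (exact permutation p = 1.0). SNORA1, from the same gene, differed by a further -1.01 ± 0.11 log2 (SE; two-sided exact permutation test, p = 0.1, the smallest possible). RABGGTB, a subunit of the enzyme that attaches lipid anchors to Rab proteins, read 9.36, 9.34 and 9.33 in the arrays labelled Gli3T, against 10.32, 10.02 and 10.39 in the empty-vector arrays. It differed by -0.90 ± 0.11 log2 (SE; adjusted p = 0.0217, limma), and its intronic SNORD45C read 8.23, 8.16 and 8.33 in the arrays labelled Gli3T, against 10.16, 9.13 and 10.14 in the empty-vector arrays. SNORD45C thus differed by a further -0.67 ± 0.24 (exact permutation p = 0.1). ZFAS1, listed under its older name C20orf199, read 9.77, 9.56 and 9.49 in the arrays labelled Gli3T, against 10.35, 10.12 and 10.15 in the empty-vector arrays. Its difference was -0.60 ± 0.11 log2 (SE; adjusted p = 0.0463, limma), and its intronic SNORD12C read 8.12, 7.79 and 8.30 in the arrays labelled Gli3T, against 9.55, 8.87 and 9.29 in the empty-vector arrays. SNORD12C differed by a further -0.56 ± 0.23 (exact permutation p = 0.2). These exact p-values were adjusted over a family of 5 comparisons, the other being that of SNORD29 with the other RNAs of SNHG1. The adjusted values were 0.167 or more, and 3 arrays against 3 could not reach 0.05. Without empty vector replicate 3, or any 1 array labelled Gli3T, limma called 0 of these 3 hosts. How strongly each probe set responds to a change in its RNA is not known, so these further differences are on the arrays' own scale.

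Of the other small RNA genes looked for (microRNAs, spliceosomal, vault, Y and RNase RNAs), the table of selected genes named 1, VTRNA1-3, a vault particle RNA. It read 8.97, 8.45 and 9.09 in the arrays labelled Gli3T, against 9.73, 10.11 and 9.83 in the empty-vector arrays, a difference of -1.05 ± 0.19 log2 (SE; adjusted p = 0.0424, limma). Replicate 2 was its highest empty-vector array, the opposite of most small nucleolar RNAs. Its adjusted p in limma was 0.0656 with centring, 0.0934 without empty vector replicate 2, 0.0954 without replicate 3, and 0.128 to 0.156 without 1 array labelled Gli3T. RPL27A, the only ribosomal protein gene in the selection, had a difference of -0.80 ± 0.09 log2 (SE; adjusted p = 0.0166, limma), with its empty-vector arrays within 0.05 of each other. That adjusted p was 0.0571 without empty vector replicate 3, and 0.105 to 0.127 without 1 array labelled Gli3T.

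**Figure D4:**
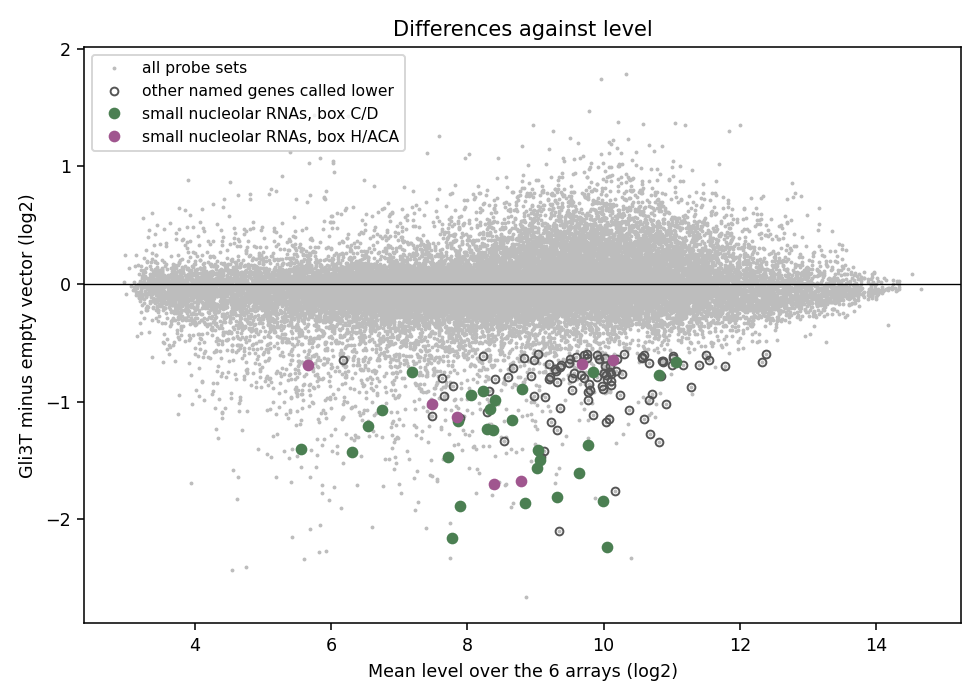
Difference between the arrays labelled Gli3T and the empty-vector arrays (log2, vertical axis) against the mean level over the 6 arrays (log2, horizontal axis) for all 32321 probe sets in grey. Coloured points are the 36 small nucleolar RNAs and open circles the 99 other named genes that limma called lower; many grey points as low as the coloured ones have no name here.

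Among all probe sets, limma called 119 lower by at least 1 log2 (0.368%). Of these, 25 were small nucleolar RNAs, 20 were other named genes and 74 have no name here. The small nucleolar RNAs were 25 of the 45 named ones, and 25 of the 36 RNAs measured were lower by that much. Names come only from the authors' selection by this same contrast, so nothing is read from these shares. Some of the 74 may be further small nucleolar RNAs, which was not tested.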

How the data were processed

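Both deposited tables hold log2 expression values. Per the submitters' processing notes, RMA, oligo and limma were used (no versions given); array annotation, build and selection limits are not given in the sources used here. RNA came from a Qiagen column kit, per the labels' protocols. How much RNA of 48 to 137 bases, the lengths of the 36, the kit kept was not tested. In the table of selected genes, 139 rows with a first value of at most 1.0 (0.0043 to 0.0481) run 1 cell to the right. Set against the value table, their cells lay at a median of 0.0024 to 0.0094 log2 from the array 1 column earlier, and the displaced first values correlated at 0.997 (log10, 135 genes) with the adjusted p computed here. All 37 small nucleolar RNA rows are displaced, so values came from the table of all probe sets. For SNORD3A the table of selected genes was read 1 cell to the left. Column 6 of the 266 ordinary rows matched no array. It was not used, nor was 1 column of values with no sample name.

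limma 3.58.1 (R 4.3.3) was fitted to all 32321 probe sets on 6 arrays, without a filter. Group was the only term, and p-values had Benjamini-Hochberg adjustment. SE is limma's moderated standard error. In the 5 comparisons of an RNA with its host or neighbours, SE came from the variances of both groups without moderation. The fit was tested on simulated data. Groups and replicate numbers came from the titles. Same-numbered arrays deviated from their group means with correlations of -0.304, -0.142 and 0.044, and the main fit did not pair them. For differently numbered arrays the correlations ran from -0.334 to 0.384. Whether arrays were paired in another order was not tested. Named were all members, array values for the 8 largest and 4 smallest differences and all SNHG1 RNAs, and the genes of the fixed lists, listed hosts included, that could be named. Array values of SNORD80, SNORD77, SNORD54, SNORD1C, SNORD49B, SNORD45C and SNORD12C were added after they were seen. Members and lists were chosen with earlier results of these data known. Genes were named only by the table of selected genes; of its 405, 398 had values. Counts over all small nucleolar probe sets, and the particle protein, assembly, decay, ribosome production and cell type lists, could therefore not be analysed here. Python 3.11.15, pandas 2.3.3 and matplotlib 3.10.9 were used.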

Additional observations from a re-analysis of the deposited data

How the results depend on the processing

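The alternatives were centring, a further quantile normalization, a limit on level, a mean trend, robust shrinkage, array weights, the replicate block, stricter limits for a call, leaving out each array, and the table of selected genes as the source; its reading 1 cell to the left was chosen after seeing the data. No difference of a member, host or other named gene reversed under them, which non-overlapping groups fix in part. The median difference of the members was -0.93 with array weights, -1.41 over the 17 members above the limit on level, and -1.16 to -1.22 in the other settings with all arrays. The table of selected genes was read with SNORD3A and without replicate 3 labelled Gli3T. There the median was -1.26 read 1 cell to the left. It was -1.21 from cells that keep their group under either reading, which also leaves out empty vector replicate 3. In limma's fits with 1 array left out, the members' median was -1.38 to -1.09. That of the box C/D RNAs was -1.48 to -1.12 and that of the box H/ACA RNAs -1.12 to -0.91. Above the limit on level, that of the box C/D RNAs left was -1.46 and that of the 3 box H/ACA RNAs left was -0.68. The classes were thus further apart there than over all members. limma called 35 members lower; 0 at an adjusted p of 0.01 (36 at an unadjusted p under 0.05) and 17 above the limit on level, where only 17 were tested. It called 26 to 36 in the other settings with all arrays (25 at 1 log2 or more) and 0 to 36 when 1 array was left out. Of the 3 hosts called lower, 0 were called at 0.01 or at 1 log2, 1 with centring, 1 with the replicate block, and 0 to 3 when 1 array was left out. Of all probe sets, 798 were called, 31 at 0.01, 150 at 1 log2, 1446 above the limit on level, 1292 with a mean trend, 7104 with array weights, and 0 to 2178 when 1 array was left out; the cause was not tested. With the replicate block 240 probe sets and 26 members were called, and VTRNA1-3 (adjusted p = 0.0797, limma) and RPL27A (adjusted p = 0.0505, limma) were not. Lower calls were 43.1% of the 798, and 33.5% to 42.8% with centring, quantile normalization, the limit on level, a mean trend or robust shrinkage. They were 56.2% with array weights and 78.8% with the replicate block. Without empty vector replicate 1, 2 or 3 they were 51.7%, 58.9% and 56.5%, so which direction held more calls depended on the setting. Signal over background was not known.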

Other observations

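The largest fall of all 32321 probe sets was that of 1 with no name here, probe set 7934979. It read 7.51, 7.54 and 7.53 in the arrays labelled Gli3T, against 10.42, 9.77 and 10.38 in the empty-vector arrays, a difference of -2.66 ± 0.18 log2 (SE; adjusted p = 0.00863, limma).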
